A study of Mus musculus with 12 samples.

Results

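The transcripts of Tardbp and of 6 genes for RNA-binding proteins of related function, Ewsr1, Taf15, Hnrnpa1, Hnrnpa2b1, Matr3 and Tia1, were described in hippocampal RNA of 12 mice, all male C57BL/6 adults (C57BL/6J in the study's methods) killed at postnatal day 70. The genes were chosen by these same measured values, because 1 Tardbp isoform was listed at 0 in every mouse without prenatal ethanol and above 0 in every mouse with it, so the ethanol comparisons are given here as a description with no test. The annotation (GENCODE vM21, GRCm38) has 112 transcripts of these 7 genes, and 95 of the 115270 transcripts in the table belong to them: 30 of Tardbp, 28 of Tia1, 13 each of Ewsr1 and Hnrnpa2b1, 5 each of Taf15 and Hnrnpa1, and 1 of Matr3. Of the 95, 7 were listed at 0 in all 12 mice (4 of Tardbp, 2 of Hnrnpa2b1 and 1 of Tia1), 41 were above 0 in all 12, and 63 reached 0.1 TPM in at least 6 mice and entered the tests. TPM is a level per length and per library size that can be compared between transcripts, and the values had been scaled between libraries.

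Each of the 4 groups held 3 mice. The dams of the ethanol and ethanol + stress mice could choose between water and 10% ethanol, and those of the control and stress mice had water alone. The labels place ethanol in gestation and the study's methods keep it available until postnatal day 10, so exposure may have overlapped with the separation, and it is called prenatal here only as the labels do. The stress and ethanol + stress pups were isolated from dam and littermates for 3 hours a day from postnatal day 2 to 14, and the control and ethanol pups stayed with the dam. Drinking was voluntary and blood alcohol was not measured, so the dose of a given pup is unknown. Pups of a litter were divided between separation and no separation, and which mice were littermates is not given in the sources used here. Total RNA of the whole dissected hippocampus was sequenced after depletion of ribosomal RNA, so fewer cells of a type and less RNA per cell cannot be told apart.

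From the steps between low values, read over 3590 single-transcript genes, each library held 12060000 to 14970000 read pairs. The summed TPM of 6 markers of hippocampal neurons was 1316 to 1629 in all libraries. That of 5 markers of the choroid plexus, a tissue next to the hippocampus, was 617 to 1838 in the control group, 40.1 to 3523 in the ethanol group, 1654 to 5263 in the stress group and 206 to 7228 in the ethanol + stress group. The 5 blood markers summed to 1603 to 2022 in control mice and to 2454 to 6815 in the other groups, with no overlap. The 5 striatum markers summed to 40.5 to 49.3 in control and 50.8 to 61.5 in stress mice, with no overlap. They summed to 38.8 to 57.7 in ethanol and 46.9 to 70.4 in ethanol + stress mice. The 5 oligodendrocyte markers summed to 2638 to 5908 over all libraries, and 5 thalamus markers to 78.7 to 125. No marker of these lists was at 0 in a whole group.

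Tardbp encodes the TAR DNA-binding protein, a nuclear protein that binds UG-rich RNA, shapes splicing and holds down its own messenger RNA by binding its 3′ end, where alternative introns are then removed. Ewsr1 and Taf15 encode 2 members of the FET family of RNA-binding and transcription-associated proteins, Hnrnpa1 and Hnrnpa2b1 splicing regulators of the hnRNP family, Matr3 a protein of the nuclear matrix, and Tia1 a splicing regulator that nucleates stress granules. In neurons the proteins shuttle between nucleus and RNA granules, and several are known for mutations or aggregates in motor neuron disease.

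The isoforms of Tardbp differ at the end of the coding sequence. The gene lies on the minus strand of chromosome 4 (148612382 to 148627019), and the last exon of the full-length transcript is either read through or has an internal intron removed. The 30 bases at 4 such splice joins are shown, with capitals marking the bases after the join. The 4 isoforms named differ there from each other, but each join is shared by 2 to 4 Tardbp transcripts. The sequences are those of the GENCODE vM21 transcripts.
Tardbp-204: gtggaagatttggtgTTCATCTCATTTCAA
Tardbp-223: ttggtggtaatccagTTCATCTCATTTCAA
Tardbp-203: gctttgggaatcaggTTCATCTCATTTCAA
Tardbp-205: ttggtggtaatccagGAATACTTCTGTCTA

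Tardbp-204, Tardbp-223 and Tardbp-203 thus share the first base after the intron, 148617705, and differ in the last base before it, at 148618674, 148618665 and 148618647. Tardbp-205 has the donor of Tardbp-223 and continues at 148617635. Tardbp-202 keeps the whole exon and its coding sequence has 414 codons, against 295 in Tardbp-204, 298 in Tardbp-223, 302 in Tardbp-205 and 304 in Tardbp-203. The join of Tardbp-223 is also that of Tardbp-201, Tardbp-209 and Tardbp-219.

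**Figure D1:**
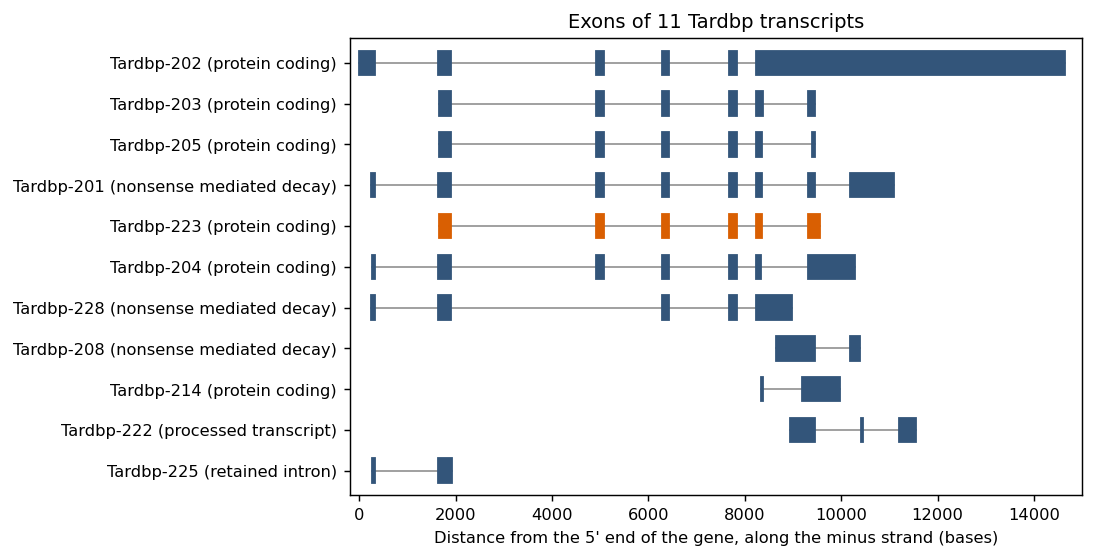
Exons (boxes) and introns (lines) of 11 Tardbp transcripts, drawn to scale against the distance in bases from the 5′ end of the gene, with the annotated type after each name. Tardbp-223, in orange, has 6 exons, and among those drawn Tardbp-202 alone extends through the long last exon.

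Tardbp-223 (ENSMUST00000189048.6, protein-coding, 1096 bases, 6 exons, 148617451 to 148625362) is the isoform by which the genes were chosen. All 6 control and stress mice had a listed value of 0. In ethanol mice it was at 1.07, 1.37 and 0.965 TPM, and in ethanol + stress mice at 1.16, 2.35 and 2.29 TPM. These levels were worth 8.08 to 9.34 read pairs in ethanol and 9.26 to 18.8 in ethanol + stress mice, and a count of 0 allows up to 0.359 to 0.447 TPM in the 6 libraries without ethanol. As a share of summed Tardbp TPM, the isoform held 0.942 to 1.07% in ethanol and 1.11 to 2.21% in ethanol + stress mice.

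No stretch of 31 bases in Tardbp-223 is its own: of its 1066 such words, 0 were absent from every other transcript of the table. Reads were therefore divided between it and other Tardbp isoforms by estimation, and 119 of its words (11.2%) also occur in transcripts of other genes. The transcripts with its splice join summed to 9.83 to 20.2 TPM in the 12 mice, or 9.57 to 18.6% of summed Tardbp TPM. Each of them likewise has 0 words of its own, so these sums are estimates. Tardbp-229 was above 0 in ethanol + stress mice 2 and 3 alone (0.568 and 0.835 TPM), and Tardbp-210 in ethanol mouse 1 and ethanol + stress mouse 2 (0.600 and 0.293 TPM). Tardbp-207 was so in ethanol mouse 1 alone (2.22 TPM) and Tardbp-209 in ethanol + stress mouse 2 (0.355 TPM). Above 0 only without ethanol were Tardbp-206 (control mouse 1), Tardbp-213 and Tardbp-218 (stress mouse 3) and Tardbp-217 (stress mouse 2).

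Over the whole table, 17 transcripts of 17 genes had the pattern of Tardbp-223, which is 0.0147% of 115270. The reverse pattern, 0 with ethanol and above 0 without, was seen in 4 transcripts, and the corresponding patterns for separation in 6 and 5. When values worth at most 3 read pairs counted as 0, the 17 became 11, Tardbp-223 among them, and the other 3 counts became 1, 3 and 3. With any 1 mouse left out, which leaves fewer values to meet the pattern, the 17 became 23 to 34. More transcripts of the table were at 0 in libraries without ethanol (51322 to 54707, median 53888) than with it (50026 to 52637, median 50988), and the part of this in the pattern was not tested.

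Of the 30 Tardbp transcripts, 20 have an intron removed that starts near the beginning of the last coding exon, and 2 read past this point unspliced. Of these 2, Tardbp-202 runs through the exon. Tardbp-228 ends inside it at 148618035, before the bases where the introns shown above end. Another 5 start farther downstream inside the same exon and have 2 or 3 exons, so they lack an intron inside it too. A further 2 end before the exon and 1 ends inside it, farther upstream than Tardbp-228. Transcripts with the intron removed held 47.7 to 66.6% of the summed TPM (median 53.7%), and read-through transcripts held 11.5 to 26.4% (median 19.4%). In group means, the first class held 59.2% ± 5.66 in the control group, 52.4% ± 5.24 in the ethanol group, 54.5% ± 1.31 in the stress group and 57.6% ± 7.80 in the ethanol + stress group (SD, n = 3 each). The read-through class, Tardbp-228 included, held 20.8% ± 1.21, 18.5% ± 7.47, 19.5% ± 4.25 and 17.4% ± 5.83 in the same order. The groups overlapped in both classes.

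**Figure D2:**
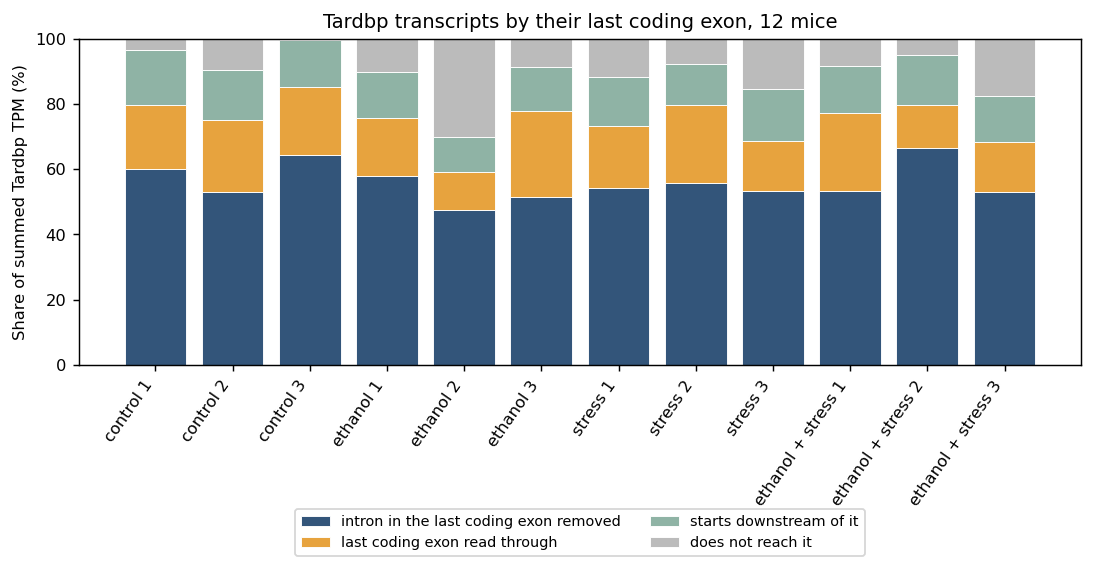
Share of summed Tardbp TPM in each mouse (bars, percent) held by 4 classes of transcripts, set by how they treat the last coding exon. The transcripts that do not reach it took 30.1% in ethanol mouse 2 and 0.423% in control mouse 3. The read-through class, Tardbp-202 and Tardbp-228, lies between 11.5 and 26.4%, and Tardbp-228 ends inside the exon. The class labelled as starting downstream starts inside the same exon and is spliced there.

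Tardbp-204 (ENSMUST00000105699.7), the leading isoform, held 17.2% of the sum on average. It was at 22.7, 20.8 and 16.4 TPM in the control group, 16.9, 14.9 and 18.4 in the ethanol group, 20.3, 23.8 and 14.0 in the stress group and 20.2, 18.3 and 15.6 in the ethanol + stress group. All 4 groups overlapped. Tardbp-202, which encodes the full-length protein, was at 10.4, 12.5 and 12.3 TPM in the control group, 10.6, 10.5 and 14.2 in the ethanol group, 11.5, 13.3 and 11.4 in the stress group and 14.3, 9.86 and 11.9 in the ethanol + stress group. Its groups overlapped as well. Of its 31-base words, 26.5% also occur in transcripts of other genes, and its long 3′ end lies opposite the annotated gene Masp2 on the other strand. The libraries kept strand, and whether the quantification used it is not given in the sources used here.

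The isoforms annotated as targets of nonsense-mediated decay, which degrades messengers with an early stop codon, held 27.4 to 43.4% of summed Tardbp TPM. The largest was Tardbp-201, at 8.87 to 17.5 TPM with a median of 12.7, followed by Tardbp-208, at 6.78 to 14.0 TPM with a median of 11.2, and Tardbp-228, at 3.93 to 12.9 TPM with a median of 9.3. Protein-coding isoforms held 35.1 to 59.0%.

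Some short isoforms varied widely between mice of a group. Tardbp-205 was at 3.88, 13.3 and 12.9 TPM in the control group, 4.27, 3.63 and 0.228 in the ethanol group, 9.59e-06, 7.48 and 7.77 in the stress group and 3.16, 6.79 and 16.9 in the ethanol + stress group. Tardbp-203 ranged from 0 to 7.94 TPM, being at 0 in ethanol + stress mouse 3 and at 6.17e-07 in control mouse 2. The retained intron Tardbp-225, a 370-base transcript of the first 2 exons, was at 2.41, 9.10 and 0 TPM in the control group, 9.51, 37.5 and 8.94 in the ethanol group, 11.9, 7.70 and 14.0 in the stress group and 6.02, 4.90 and 16.9 in the ethanol + stress group. It stood out in ethanol mouse 2, where it made up 29.4% of the Tardbp sum. For so short a transcript, this level was worth 48.6 read pairs, against 583 for the 10.5 TPM of Tardbp-202 in the same mouse.

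The other Tardbp transcripts were low or seen in few mice. Tardbp-214, which begins inside the last coding exon and has an incomplete coding sequence, was the exception, at 4.69 to 15.9 TPM. Tardbp-226 was above 0 in all 12 mice, at 0.849 to 6.74 TPM, and Tardbp-211, Tardbp-220, Tardbp-224 and Tardbp-230 ranged from 0 to 2.82, 5.82, 2.96 and 6.30 TPM. Tardbp-212 was above 0 in ethanol mouse 2 (1.32 TPM), stress mouse 2 (1.23) and ethanol + stress mouse 3 (1.19), and Tardbp-227 in control mouse 3 (0.992 TPM) and ethanol + stress mouse 3 (1.93). A single mouse had Tardbp-206 (0.295 TPM, control mouse 1), Tardbp-209 (0.355, ethanol + stress mouse 2), Tardbp-213 (1.49, stress mouse 3), Tardbp-217 (0.490, stress mouse 2) and Tardbp-218 (0.489, stress mouse 3). Tardbp-215, Tardbp-216, Tardbp-219 and Tardbp-221 were listed at 0 in every library.

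The comparison of stress with control mice asks what separation does without ethanol, and that of ethanol + stress with ethanol mice asks the same in mice exposed to ethanol. A transcript is named called where the unadjusted p of limma was under 0.01, the threshold of the study, and adjusted p-values cover all transcripts tested. None of 59852 transcripts had an adjusted p under 0.05 in either comparison or in their interaction. The 16 Tardbp transcripts tested included none called in stress against control mice, where 0.914% of all transcripts were called. Of these 16, Tardbp-223 entered only through its values with ethanol, and with both groups at 0 it could not be called there. In ethanol + stress against ethanol mice 1 was called, Tardbp-222, against 0.964% of all transcripts.

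Tardbp-222 (ENSMUST00000189041.1, 148615466 to 148618075) is a processed transcript without a coding sequence that starts inside the last exon. It was at 0, 1.21 and 1.53e-07 TPM in ethanol and at 3.75, 3.14 and 2.46 TPM in ethanol + stress mice, and these 2 groups did not overlap. In control mice it was at 3.22, 0.592 and 0.610 TPM and in stress mice at 0.835, 2.69 and 5.79 TPM, and both groups overlapped with the ethanol and the ethanol + stress mice. The log2 difference of ethanol + stress from ethanol mice was 2.25 on the scale of log2(TPM + 0.5), with a standard error of 0.69 (limma, unadjusted p = 0.00758, adjusted p = 1). Without any 1 of 6 mice (ethanol mouse 1 or 3, stress mouse 2, or each ethanol + stress mouse), it was no longer called, at log2 differences of 1.95 to 2.39. With 2 ethanol mice at or near 0, its size depends on the pseudocount: it was 3.75 and called with 0.1 TPM, and 1.65 and not called with 1 TPM.

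For Tardbp-223, stress and control mice were all at 0. The fitted log2 difference of ethanol + stress from ethanol mice was 0.54, and their values overlapped. It is given without a p, since the 6 libraries at 0 add no spread to the fit. The log2 difference of Tardbp-225 between stress and control mice was 2.24 (standard error 0.93, limma, unadjusted p = 0.0347, adjusted p = 1), and it was not called. It was 1.10 without control mouse 3, which was at 0, and 3.24 and called without control mouse 2.

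**Figure D3:**
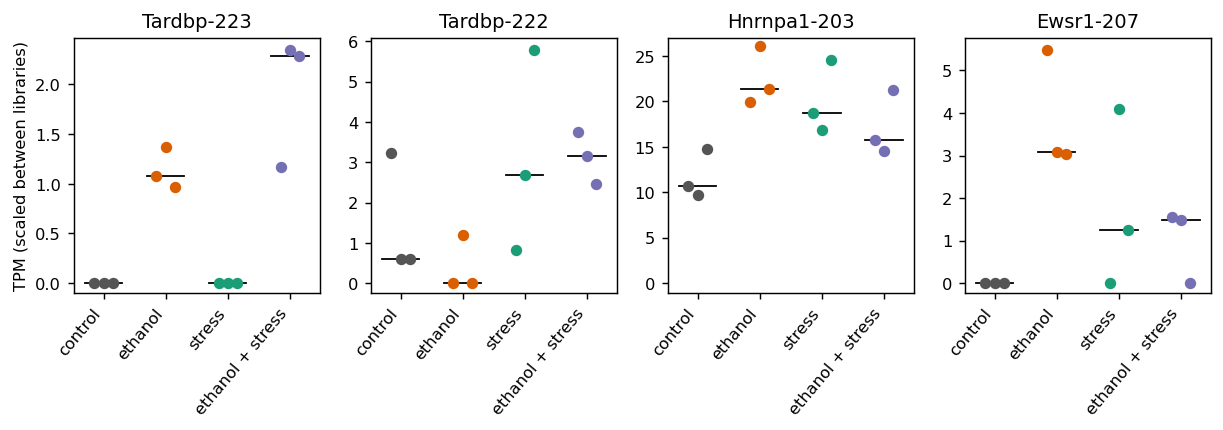
TPM of 4 transcripts in each mouse (points), with the median of the group (line), on linear axes from 0. Tardbp-223 is at 0 in all control and stress mice, Tardbp-222 has its lowest median in ethanol mice, Hnrnpa1-203 has its lowest in control mice, and Ewsr1-207 is at 0 in all control mice and highest in an ethanol mouse.

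Summed over its transcripts, Tardbp was at 105, 110.3 and 104 TPM in the control group, 106, 127 and 102 in the ethanol group, 107, 109.9 and 108 in the stress group and 105, 109 and 103 in the ethanol + stress group. Ethanol mouse 2 was the highest, and it is also the mouse with 37.5 TPM of Tardbp-225. Its library also had the largest summed TPM of all, 1173650, and the part of the scaling in its rank was not tested. Means were 106 ± 3.32, 112 ± 13.6, 108 ± 1.34 and 106 ± 2.66 TPM in the same order (SD, n = 3 each).

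Averaged over the 12 mice, Hnrnpa2b1 had the highest sum (234 TPM), followed by Hnrnpa1 (183), Ewsr1 (157), Tardbp (108), Tia1 (38.9), Matr3 (22.0) and Taf15 (15.1). This order held within each of the 12 mice. Across mice the ranges of neighbouring genes overlapped from Hnrnpa2b1 down to Tardbp, and did not overlap from Tardbp down to Taf15. The coefficient of variation over all mice was lowest for Tardbp, 6.08%, and highest for Tia1, 13.3%.

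**Figure D4:**
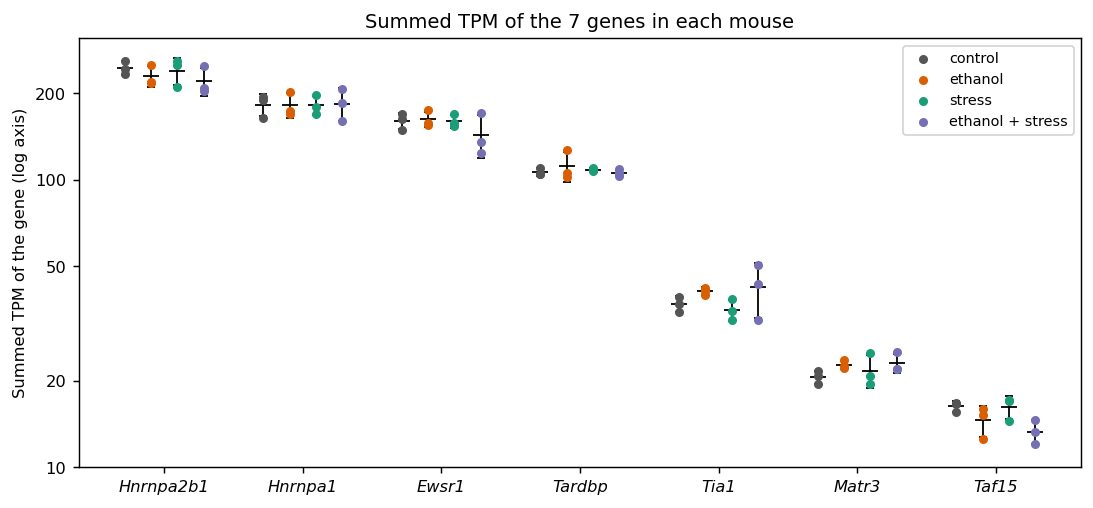
Summed TPM of each gene on a log axis, with 1 point per mouse, coloured by group, and the mean with its SD (n = 3). The groups of a gene overlap or lie close together, and the genes fall from Hnrnpa2b1 at 203 to 259 TPM to Taf15 at 12.1 to 17.2 TPM.

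None of the 7 sums was called in a separation comparison or in the interaction, and none had an unadjusted p under 0.05 there (limma), against 0.51% of 18434 genes called in stress against control, 0.667% in ethanol + stress against ethanol mice and 0.461% for the interaction. The log2 differences of stress from control mice lay between -0.07 (Tia1) and 0.07 (Matr3), and the Tardbp sum differed by 0.03 with a standard error of 0.09. In ethanol + stress against ethanol mice they lay between -0.19 (Ewsr1) and 0.02 (Tia1). For Ewsr1 the standard error was 0.11 (limma, unadjusted p = 0.12, adjusted p = 1), and its sum was 158, 156 and 174 TPM in ethanol and 172, 124 and 135 TPM in ethanol + stress mice. Without ethanol + stress mouse 1, whose value lay among those of the ethanol mice, the Ewsr1 sum was called.

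In the ethanol contrasts, which chose the genes, the log2 differences of the 7 sums ranged from -0.16 (Taf15) to 0.15 (Tia1) in ethanol against control mice and from -0.28 (Taf15) to 0.23 (Tia1) in ethanol + stress against stress mice. Those of Tardbp were 0.07 and -0.04. Taf15 was at 16.3 ± 0.67 TPM in the control group, 14.6 ± 1.80 in the ethanol group, 16.2 ± 1.48 in the stress group and 13.3 ± 1.31 in the ethanol + stress group (SD, n = 3 each).

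Across all 63 transcripts tested, 1 was called in stress against control mice, against a background of 0.914% of transcripts, and 1 in ethanol + stress against ethanol mice, against 0.964%. Tardbp-223, at 0 in both groups of the first comparison, could not be called there. For the interaction, the difference between the 2 separation effects, 2 were called against 0.854%. The interaction equals the difference between the 2 ethanol contrasts, which chose the genes, so it also draws on them. At an unadjusted p under 0.05 the counts were 6, 4 and 4 of 63 (9.52, 6.35 and 6.35%), against 3.88, 4.37 and 4.06% of all transcripts. The median log2 difference of the 63 was -0.07 in stress against control and -0.05 in ethanol + stress against ethanol mice, and that of all transcripts tested was 0.0013 and -0.02.

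**Figure D5:**
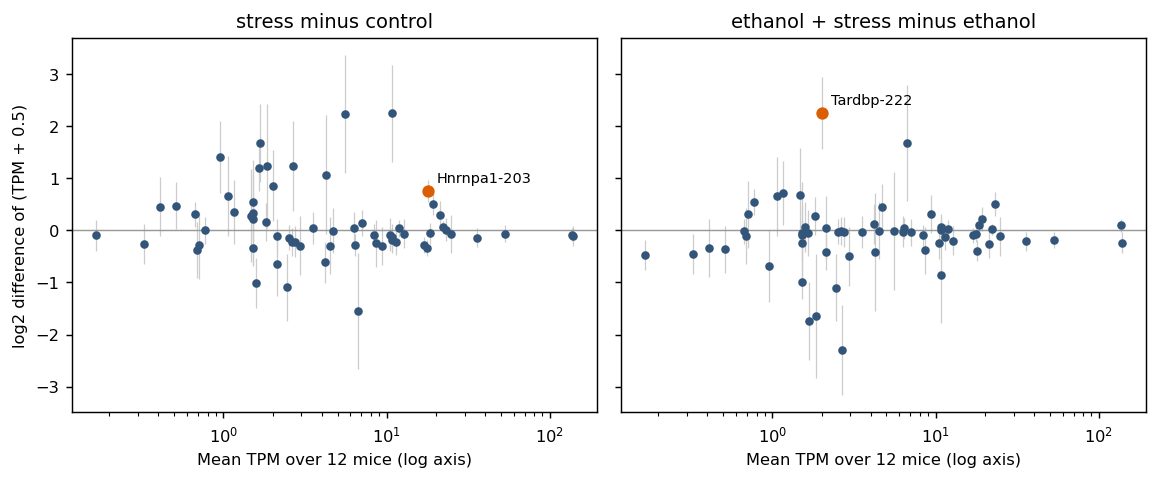
Log2 difference in TPM + 0.5 (points, with standard errors) of the 63 tested transcripts against their mean TPM on a log axis, in both separation comparisons. Tardbp-225, at 2.24, is the highest point of stress against control mice, and the orange points are the called Hnrnpa1-203 and Tardbp-222.

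Groups did not overlap in 5 of the 63 transcripts for stress against control, against 8.22% of all transcripts tested. Of these, Hnrnpa2b1-202, Hnrnpa2b1-210, Hnrnpa1-203 and Tia1-215 were higher in stress mice and Ewsr1-201 was lower. In ethanol + stress against ethanol mice it was also 5, against 7.94%, with Tardbp-222 higher and Ewsr1-201, Ewsr1-206 and Ewsr1-207 and Tardbp-220 lower.

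Among the FET genes, the leading isoform of Ewsr1 was Ewsr1-205 (ENSMUST00000102930.9), with 33.8% of the sum. It was at 57.0, 62.2 and 57.0 TPM in the control group, 45.9, 50.8 and 58.9 in the ethanol group, 64.5, 54.8 and 49.7 in the stress group and 57.8, 37.4 and 42.8 in the ethanol + stress group. The groups overlapped in both separation comparisons, with log2 differences of -0.07 and -0.19 (standard error 0.16 each). Of its words, 55.4% also occur in transcripts of other genes, so reads could be divided with these.

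Ewsr1-207 (ENSMUST00000130118.1, chromosome 11, 5069974 to 5070891) has no coding sequence and 3 short exons, and lies on the minus strand inside the 3′ part of the gene. Every control mouse was at 0. The levels were 5.49, 3.09 and 3.03 TPM in ethanol, 0, 4.10 and 1.26 in stress and 1.57, 1.48 and 0 in ethanol + stress mice. The stress mice thus overlapped with the control mice, and every ethanol + stress mouse was below every ethanol mouse. The interaction was -3.41 on the log2 scale, with a standard error of 1.06 (limma, unadjusted p = 0.00845, adjusted p = 1). With the control mice all at 0, its size depends on the pseudocount (-5.63 with 0.1 TPM and -2.53 with 1 TPM), and these mice add no spread to the fit. It was not called without any 1 of 9 mice (each control and each ethanol mouse, stress mouse 2 or 3, or ethanol + stress mouse 3), nor with a pseudocount of 0.1 TPM or without a filter. The 3 called transcripts of Ewsr1, Hnrnpa1 and Tardbp hold 1.06%, 9.85% and 1.88% of their genes' sums.

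Ewsr1-201 (ENSMUST00000063232.6), a protein-coding transcript of 113 codons from the 5′ part of the gene, was below ethanol mice in each ethanol + stress mouse. Its values were 1.85, 2.17 and 2.36 TPM against 1.49, 0.372 and 0.826 TPM. They were 1.67, 1.52 and 2.15 TPM across the control group against 1.28, 1.24 and 1.31 TPM across the stress group, which likewise did not overlap. The log2 differences were -0.99 (limma, unadjusted p = 0.0116, adjusted p = 1) and -0.35 (unadjusted p = 0.307, adjusted p = 1), each with a standard error of 0.33, and neither was called. The first was called without ethanol + stress mouse 1, where it was -1.28.

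Taf15-201 (ENSMUST00000021018.10), the leading isoform of Taf15, held 55.5% of the sum, at 5.91 to 10.4 TPM. It overlapped between groups in both comparisons. The processed transcript Taf15-202 was at 1.11, 0.657 and 0 TPM in the control group, 1.94, 2.27 and 2.16 in the ethanol group, 0.918, 1.93 and 2.79 in the stress group and 1.94, 1.95 and 2.19 in the ethanol + stress group. Its log2 difference of stress from control mice was 1.20, with a standard error of 0.44 (limma, unadjusted p = 0.0204, adjusted p = 1), and it was not called. Without control mouse 1 or stress mouse 1 it was called, at 1.56 and 1.53, and without control mouse 3, which was at 0, it fell to 0.717. None of the words of the Taf15 transcripts occurs in another gene.

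Among the hnRNP genes, Hnrnpa1-202 (ENSMUST00000087351.8) held 74.6% of the Hnrnpa1 sum. It was at 127, 155 and 145 TPM in the control group, 120.3, 128 and 141 in the ethanol group, 149.7, 129 and 124 in the stress group and 151, 121 and 145 in the ethanol + stress group, and all groups overlapped. Hnrnpa1-203 (ENSMUST00000230171.1, chromosome 15, 103240432 to 103246692, plus strand) has 11 exons, the same 320 codons as Hnrnpa1-202 and an annotation as a target of nonsense-mediated decay. It was at 10.7, 9.71 and 14.8 TPM in the control group, 19.98, 26.2 and 21.4 in the ethanol group, 18.7, 16.9 and 24.6 in the stress group and 15.7, 14.5 and 21.3 in the ethanol + stress group. The control mice were below every stress and ethanol mouse and overlapped with the ethanol + stress mice.

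Stress mice exceeded control mice in Hnrnpa1-203 by 0.75 on the log2 scale, with a standard error of 0.20 (limma, unadjusted p = 0.00374, adjusted p = 0.921). Ethanol + stress mice differed from ethanol mice by -0.39 (unadjusted p = 0.0827, adjusted p = 1, same standard error). The difference between these effects, the interaction, was -1.14, with a standard error of 0.29 (limma, unadjusted p = 0.00233, adjusted p = 1), and it was called in each of the 12 fits that left out 1 mouse. The stress difference was not called without control mouse 1 or 2 or stress mouse 3, at 0.60 to 0.70. Of the words of Hnrnpa1-203, 74.5% occur in transcripts of other genes and 25 of 1253 in no other transcript, so its level is uncertain. The blood markers, at 1603 to 2022 TPM across the control group against 2593 to 3392 TPM across the stress group, also separated these groups. So did the striatum markers, at 40.5 to 49.3 against 50.8 to 61.5 TPM. The part of either list in the result was not tested.

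The share of Hnrnpa1 in its 2 isoforms annotated for nonsense-mediated decay was 7.96% ± 1.64 in the control group, 14.8% ± 2.83 in the ethanol group, 12.7% ± 3.46 in the stress group and 11.7% ± 2.32 in the ethanol + stress group (SD, n = 3 each). The summed TPM of the gene was 183 ± 16.3, 182 ± 17.7, 182 ± 13.8 and 184 ± 24.1 in the same order. The share in control mice, 6.14 to 9.35%, overlapped with that in ethanol + stress mice, 9.11 to 13.6%, and is given without a test.

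Hnrnpa2b1-204 (ENSMUST00000203220.2) held 58.9% of the Hnrnpa2b1 sum. It was at 151, 146 and 162 TPM in the control group, 127, 131 and 156 in the ethanol group, 165, 152 and 112 in the stress group and 162, 102 and 96.0 in the ethanol + stress group. Stress mouse 3 and ethanol + stress mice 2 and 3 were the 3 lowest. Hnrnpa2b1-202 was at 10.99, 19.6 and 18.4 TPM across the control group against 23.3, 23.1 and 22.1 TPM across the stress group, a log2 difference of 0.51 with a standard error of 0.23 (limma, unadjusted p = 0.0475, adjusted p = 1). Hnrnpa2b1-210 was at 1.17e-07, 5.21 and 3.07 TPM across the control group against 8.66, 10.5 and 9.95 TPM across the stress group, a log2 difference of 2.23 with a standard error of 1.13 (limma, unadjusted p = 0.0736, adjusted p = 1). Hnrnpa2b1-201 went the other way, at 16.5, 20.2 and 23.4 TPM in control mice and 17.5, 15.8 and 13.4 TPM in stress mice, which overlapped, a log2 difference of -0.35 with a standard error of 0.15 (limma, unadjusted p = 0.045, adjusted p = 1). None of the 3 was called.

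Matr3 had 1 of its 18 annotated transcripts in the table, Matr3-201 (ENSMUST00000166793.7), so isoform shares could not be formed. It was at 20.7, 19.5 and 21.7 TPM in the control group, 22.6, 23.6 and 22.1 in the ethanol group, 19.5, 20.7 and 24.9 in the stress group and 22.0, 22.0 and 25.1 in the ethanol + stress group. The separation differences were 0.07 and 0.01 on the log2 scale (standard error 0.11 each), with overlapping groups.

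Tia1 was split among many isoforms, and retained introns held 29.0 to 48.3% of its sum. Its leading isoform, Tia1-201 (ENSMUST00000095752.8), held 16.6% and was at 6.51, 6.18 and 6.38 TPM in the control group, 7.35, 7.22 and 6.22 in the ethanol group, 5.36, 6.52 and 3.89 in the stress group and 5.44, 8.84 and 7.38 in the ethanol + stress group. The groups overlapped in both separation comparisons. Tia1-202 held 16.4% and had the higher median, 6.49 against 6.44 TPM, so the lead of Tia1-201 rests on the means. The Tia1 sum was 32.4 to 50.8 TPM, with both the lowest and the highest value in an ethanol + stress mouse.

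The share of the leading isoform was compared between the 6 separated and the 6 undisturbed mice by a two-sided exact permutation test within the prenatal treatment, with 400 arrangements, for the 6 genes with more than 1 transcript. None passed after adjustment over these 6. The lowest p was that of Hnrnpa2b1-204, whose share was 61.3% ± 2.26 in undisturbed and 56.5% ± 7.75 in separated mice (SD, n = 6 each), a difference of -4.85 percentage points (exact permutation p = 0.175, adjusted p = 0.978). Tardbp-204 held 17.0% ± 3.39 and 17.4% ± 3.16, a difference of 0.46 points (exact permutation p = 0.805, adjusted p = 0.978).

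For the transcripts described above, the ethanol contrasts that chose the genes are given as fitted values alone. The log2 differences in ethanol against control mice were 0.92 for Hnrnpa1-203 (standard error 0.20) and 1.42 for Taf15-202 (standard error 0.44), and in ethanol + stress against stress mice they were -0.22 and 0.17. For Tardbp-225 they were 2.67 and -0.42 (standard error 0.93), for Tardbp-205 -1.94 and 1.27 (1.11) and for Tardbp-222 -1.13 and 0.26 (0.69) in the same order. All 3 thus changed sign between the contrasts. The difference between the contrasts is the interaction, in which none of the 3 was called in the main fit. Those of Tardbp-204 and Tardbp-202 lay between -0.24 and -0.0047. For Tardbp-223 and Ewsr1-207, at 0 in all control mice, such a difference depends on the pseudocount and gives no fold. The ethanol and the stress comparison share the control mice.

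Other genes of the same families were taken as lists, as gene sums. In the 25 genes of the FET and hnRNP list, all of which were tested, 0 were called in either separation comparison or the interaction (limma, 0 at an unadjusted p under 0.05), where 0.51, 0.667 and 0.461% of all genes were called, so that 0 is near the background in a list of this size, and the same holds for the other lists. The median log2 difference was -0.00098 in stress against control and -0.02 in ethanol + stress against ethanol mice, where all genes had medians of 0.0042 and -0.01. The highest levels were those of Hnrnpk (398 TPM), Hnrnpc (215), Hnrnpl (175) and Hnrnph1 (134), which bind RNA in the nucleus. In the 13 stress granule genes, led by G3bp2 (192 TPM), Caprin1 (188), Ddx3x (103) and Pabpc1 (63.3), 0 were called (0 at an unadjusted p under 0.05), with medians of -0.03 and -0.08. Of the 8 paraspeckle and nuclear matrix genes 6 were measured, led by Nono (91.7 TPM), Sfpq (81.1), Pspc1 (67.2) and Safb (32.7), and 0 were called (0 at an unadjusted p under 0.05), with medians of -0.05 and -0.07. Neat1 and Malat1 were not analysed here.

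The 5 genes most like the Tardbp sum over the 12 mice, by Pearson's r of log2(TPM + 0.5) among 14454 genes with a mean of at least 1 TPM, were Gm42791 (r = 0.93), Kcnd1 (0.89), Dph7 (0.88), Grk1 (0.87) and Phykpl (0.87). The mice share their libraries' depth and scaling, and ethanol mouse 2, with the highest Tardbp sum, carried part of the likeness, since without it the 5 values were 0.74, 0.58, 0.42, 0.73 and 0.62. The sums of the other 6 genes had r from -0.26 (Hnrnpa1) to 0.19 (Taf15).

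TGTGTG, a UG-repeat of the kind the TAR DNA-binding protein binds, was searched on the sense strand of each leading transcript, counting matches that may overlap. It occurred 3 times in Hnrnpa1-202, 2 times each in Tardbp-204 and Matr3-201, once each in Hnrnpa2b1-204 and Tia1-201, and not in Ewsr1-205 or Taf15-201. Among transcripts of similar length, within 10%, the share that held it was 52.7 to 64.9% for the shorter 5 leading transcripts, 77.9% for Tia1-201 and 93.0% for Matr3-201.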

How the data were processed

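RNA-Seq of 12 hippocampi (3 per group) was analysed from 1 deposited table of transcripts. Per the labels, libraries were stranded total RNA after ribosomal depletion, and the submitters' processing notes name CASAVA, kallisto, sleuth and mm10. The study's methods give pseudo-alignment to the Ensembl mouse transcriptome with kallisto, and versions are not given in the sources used here. The deposited values are a signal, TPM that the authors scaled between libraries, and their sums are 889222 to 1173650 per library.

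Transcripts were matched to GENCODE vM21 by identifier (113580 of 115270). After removal of features that reached 0.1 TPM in fewer than 6 libraries, 59852 transcripts or 18434 gene sums were fitted on the scale of log2(TPM + 0.5) by limma 3.58.1 in R 4.3.3, in 1 model of the 4 groups with an intensity trend. A call is an unadjusted p under 0.01, and adjusted p-values are by Benjamini-Hochberg over all features. The test was tried on simulated data first. Read pairs were recovered from steps in the low values, of which 82.4 to 86.9% were whole within 0.1. A value of 0 allows up to 3 read pairs, which covers counting error only, and estimated reads need not be whole.

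The named transcripts were every transcript of Tardbp, the leading transcript of the other genes, any called in a separation comparison or the interaction, and any at 0 in every mouse of one prenatal treatment and above 0 in all of the other. Ewsr1-201, Ewsr1-206, Ewsr1-211, Taf15-202, Taf15-204, Hnrnpa2b1-201, Hnrnpa2b1-202, Hnrnpa2b1-210, Tia1-215, Tia1-216 and Tia1-217 were named after their values were seen. The members, lists and rules were chosen with earlier results of these data known. Nothing says that mice came from separate litters, so p-values measure the spread between these mice. Alternatives were the pseudocount, filter, scaling, trend, groups in the fit, replicate block and leaving out each mouse.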

Additional observations from a re-analysis of the deposited data

Results flagged for a closer look

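The interaction of ethanol and separation was past the threshold for 2 transcripts, Ewsr1-207, with a log2 difference of differences of -3.41, and Hnrnpa1-203, with -1.14 (limma, unadjusted p = 0.00845 and 0.00233, adjusted p = 1 for both). In Ewsr1-207 the fitted log2 difference with separation was 1.67 without ethanol and -1.74 with it. Its 3 control mice were all at 0, so the first value and the interaction depend on the pseudocount, with an interaction of -5.63 at 0.1 TPM, where it is no longer past the threshold, and -2.53 at 1 TPM. Without stress mouse 2 the first value was 0.907, and without stress mouse 1, which was at 0, it was 2.51. In Hnrnpa1-203 it was 0.75 and -0.39. Neither adjusted p passes, and 0.854% of all transcripts tested were past the same threshold. The interaction also draws on the ethanol contrasts, which chose the genes.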

How the results depend on the processing

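No difference of a called transcript changed sign under any alternative. With a common total, the median log2 difference of stress from control mice over everything tested went from 0.0013 to -0.01 for transcripts and from 0.0042 to -0.01 for genes. In ethanol + stress against ethanol mice it went from -0.02 to -0.06 and from -0.0052 to -0.05, and for the interaction from -0.02 to -0.05 and from -0.0093 to -0.04. In ethanol + stress against ethanol mice, the 1 called transcript became 0 with a pseudocount of 1 TPM and 2 with no filter or without the trend in the variance (Ewsr1-201 and Tardbp-222 each time), and 0 to 2 when 1 mouse was left out (0 without ethanol mouse 1, stress mouse 2 or ethanol + stress mouse 3, and 2 without ethanol + stress mouse 1, Ewsr1-201 and Tardbp-223, of which the latter is no evidence, since its 6 libraries at 0 add no spread to the fit). The 1 call was Taf15-204 without ethanol mouse 3 and Ewsr1-211 without ethanol + stress mouse 2, in place of Tardbp-222. The 2 calls of the interaction became 1, Hnrnpa1-203, with a pseudocount of 0.1 TPM or no filter, and 1 to 3 when 1 mouse was left out, with 3 without control mouse 2 (Ewsr1-211, Hnrnpa1-203 and Tardbp-225) or ethanol + stress mouse 2 (Ewsr1-207, Ewsr1-211 and Hnrnpa1-203), 2 without stress mouse 3 (Hnrnpa1-203 and Tia1-217) and 1 without control mouse 1 or 3, any ethanol mouse, stress mouse 2 or ethanol + stress mouse 3. In stress against control mice, 1 became 1 to 3, with 3 (Ewsr1-207, Hnrnpa1-203 and Taf15-202) without stress mouse 1, 2 (Tia1-216 and Tia1-217) without stress mouse 3, and Taf15-202 or Tardbp-225 in place of Hnrnpa1-203 without control mouse 1 or 2. The 0 gene sums called in ethanol + stress against ethanol mice became 0 to 1, with 1 (Ewsr1) without ethanol + stress mouse 1. The share tests gave 0 calls under all 15 alternatives. The cause of these moves was not tested.

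The fitted difference of Tardbp-223, which is at 0 without ethanol and so has no fold, was 1.70 in ethanol against control mice, 3.61 with a pseudocount of 0.1 TPM, 1.09 with 1 TPM and 1.60 to 1.78 when 1 mouse was left out. In ethanol + stress against stress mice it was 2.24, 4.28, 1.52 and 2.11 to 2.49, the last without ethanol + stress mouse 1. The 17 transcripts with its pattern became 11 when values worth at most 3 read pairs counted as 0 and 23 to 34 when 1 mouse was left out, an alternative chosen after seeing the data.

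With the replicate number as a block, ethanol + stress against ethanol mice had 0 called transcripts and the interaction 1, Hnrnpa1-203. The numbers pair no mice in the labels, and same-numbered mice deviated from their group means with r of -0.256 to 0.323 (18 pairs, median -0.036), against -0.48 to 0.49 for other numbers (36 pairs, median 0.032). A minimum of 1 TPM removes Tardbp-223, and a fit of 2 groups alone gives no interaction, so neither has a value. Shared words limit every isoform split by estimation, and at this depth a listed 0 allows up to 3 read pairs.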
